A study of Mus musculus with 8 samples.

Results

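The genes described here are 9 components of the complement system, read from the heart: the C1q subunit genes C1qa, C1qb and C1qc, the C1 protease genes C1ra and C1s1, Serping1 for their inhibitor, and the cascade components C3, C4a and C4b. They were taken by gene name from the 30445 genes of the deposited table, and all 9 had a row and passed the filter on low counts. Messenger RNA from hearts of C57 mice was sequenced 8 weeks after transverse aortic constriction, an operation that narrows the aorta and loads the left ventricle with pressure. One group is 4 wildtype libraries and the other 4 libraries labelled Mertk knockdown (here the labelled group), and both were operated. Below, the hearts of a group means these libraries, and n counts libraries. No unoperated heart was analysed here. How and where Mertk was to be lowered, the age and sex of the mice, and whether each replicate is a separate mouse are not stated in the labels, so p-values measure the spread between these libraries, which may be technical.

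In the classical pathway C1q binds immune complexes or the surface of dying cells, the attached proteases C1r and C1s become active, and C1s cleaves C4 and C2 into the enzyme that splits C3. Fragments of C3 and C4 stay on the target and are read by receptors on phagocytes, while C1 inhibitor, a serpin, inactivates C1r and C1s. The liver makes most of the C3 and C4 of plasma. C1q in tissues comes mainly from macrophages, and fibroblasts and other stromal cells make C1r, C1s, C3 and C4 locally. Several of these genes are known to respond to interferon.

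The libraries themselves differed, and these differences are given before the members. Total counts ran from 59287621 to 71571173. Mertk was not lower in the labelled group, with a mean of 11.05 ± 0.87 CPM (counts scaled to library size with TMM factors) over wildtype and of 11.86 ± 0.951 CPM over the labelled libraries (SD, n = 4 each; edgeR log2 fold change 0.10, 95% interval −0.14 to 0.34, adjusted p = 0.766), so each direction is that of the labels. Summed over 8 genes, cardiomyocyte markers ran from 35151 to 47920 CPM in wildtype hearts and from 49598 to 58167 CPM in the labelled libraries; 6 endothelial markers summed to 490 to 570 and 579 to 759 CPM, and neither pair of ranges overlapped. The part of these shifts in the results was not tested. The 12 hepatocyte markers summed to 177 to 246 CPM in the labelled libraries and 236 CPM in wildtype 1, but to 7.85 to 11.1 CPM in wildtype 2, 3 and 4, where 6 of the 12 were at 0 counts in at least 1 library. The 4 atrial markers summed to 339, 201.1 and 606 CPM in wildtype 3, wildtype 4 and labelled library 4, and to 3.71 CPM or less in the others.

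C4b, which encodes complement C4, was the 1 member whose lower level in the labelled group passed the test described below. Its level was 3.59-fold lower, with means of 89.3 ± 20.1 CPM over wildtype hearts and 24.9 ± 9.01 CPM over the labelled ones (SD, n = 4 each). The other 8 members also had lower means in the labelled group, by 1.34-fold (C1s1) to 1.68-fold (Serping1) for 7 of them and 3.56-fold for the low gene C4a, and none of these passed the test. The test was edgeR's quasi-likelihood F test over 17787 genes, and a gene was called where its p after Benjamini-Hochberg adjustment was under 0.05. It called 1 of 9 members lower and 0 higher, while 0.371% of all tested genes were called lower and 0.647% were called in either direction. The sign was negative in all 9 (median log2 fold change −0.62), which held for 50.1% of all tested genes (median −0.0007), and 8 of 9 had an unadjusted p under 0.05 with a lower level, against 6.32% of all genes. In 4 members (C4b, C4a, C3 and C1qb) the highest labelled library was lower in CPM than the lowest wildtype one, which held for 3.90% of all tested genes. The members vary together across the libraries, so these counts are not 9 independent observations. The members were also chosen with earlier results of these data known, so the counts only describe the values. The labels name the tissue only as heart and do not state which part was taken. In tissue of mixed cell types, fewer cells of a type and less RNA per cell cannot be told apart.

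**Figure D1:**
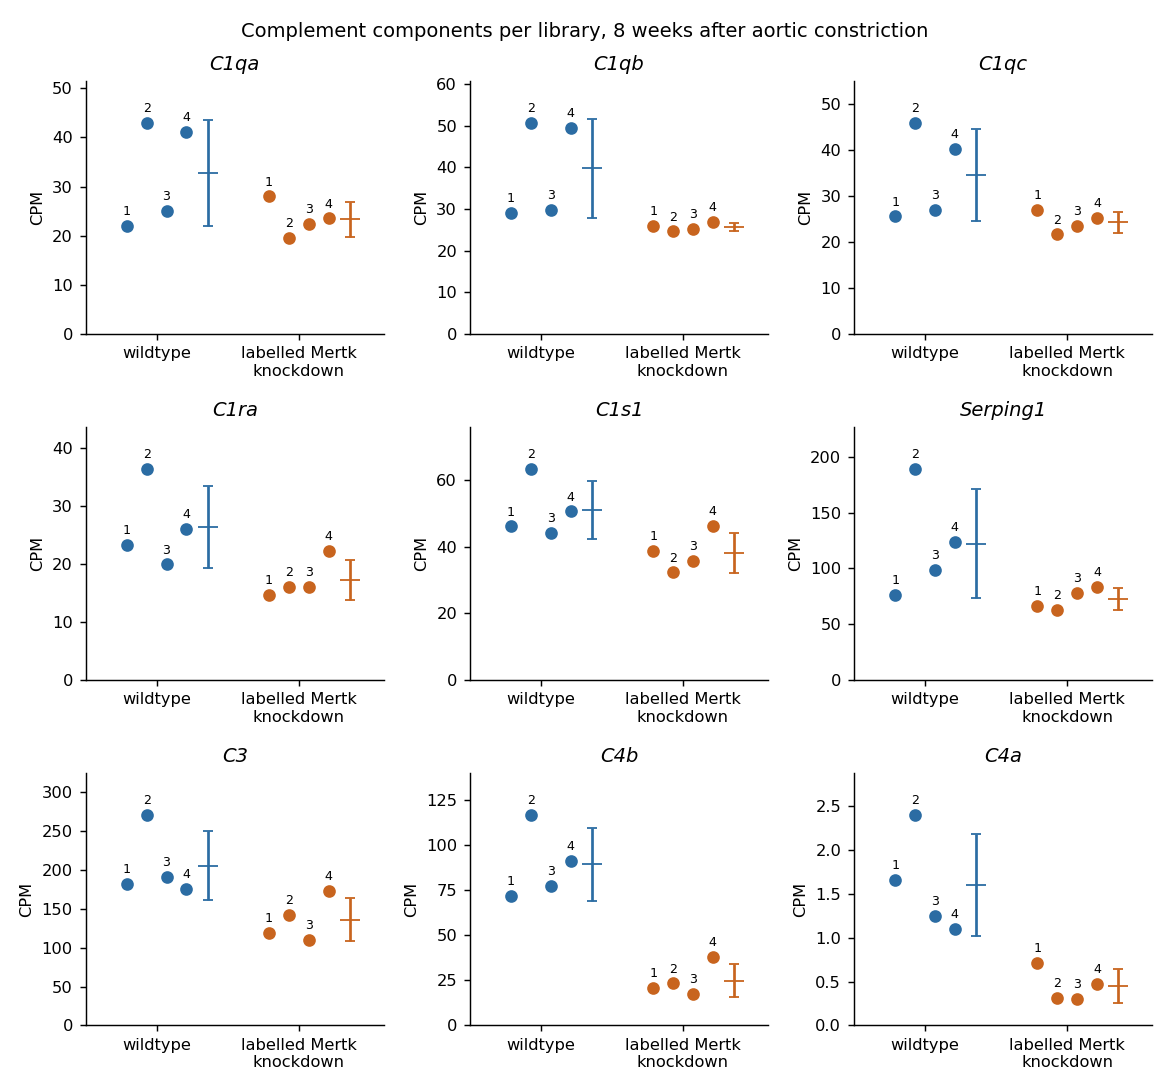
Level of each complement component in CPM (vertical axes, from 0) in the 4 wildtype and the 4 labelled Mertk knockdown libraries; points carry the replicate number, and the bars beside them are the mean ± SD of each group. C4b lies at 71.6 to 117 CPM in wildtype and 17.3 to 37.8 CPM in the labelled group, while for C1qa, C1qc, C1ra, C1s1 and Serping1 the groups overlap.

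**Figure D2:**
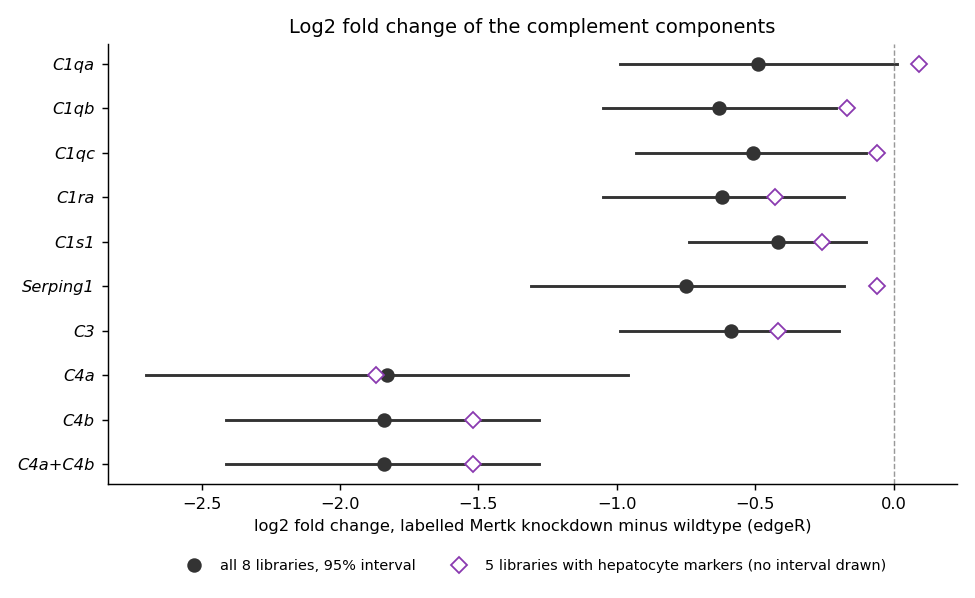
Log2 fold change of each component and of summed C4 (horizontal axis, labelled Mertk knockdown minus wildtype, edgeR), with the 95% interval from all 8 libraries as a line and the value within the 5 libraries with hepatocyte markers as an open diamond. C4b, C4a and their sum lie between −1.83 and −1.84 over all libraries, and the other 7 lie between −0.75 and −0.42.

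The 3 subunit genes of C1q lie within 18.7 kb on chromosome 4 (mm10, 136880129 to 136898803, all on the minus strand), in the order C1qb, C1qc, C1qa. C1qa, the A chain (ENSMUSG00000036887), was at 22.0, 42.9, 25.0 and 41.1 CPM in wildtype 1 to 4 and at 28.0, 19.5, 22.3 and 23.5 CPM in labelled libraries 1 to 4. Wildtype 2 and 4 were high, and wildtype 1 and 3 lay within the range of the labelled group. In edgeR the log2 fold change was −0.49 with an SE of 0.22 and a 95% interval of −0.99 to 0.01 (adjusted p = 0.413). C1qb, the B chain (ENSMUSG00000036905), was at 29.1, 50.6, 29.7 and 49.5 CPM in wildtype against 26.0, 24.6, 25.2 and 26.9 CPM. Here the lowest wildtype library lay just above the highest labelled one. In the deposited FPKM, which the authors scaled for gene length and library size, the groups overlapped. Wildtype 3 was at 23.0 FPKM and labelled library 4 at 23.1 FPKM. The log2 fold change of C1qb was −0.63 (SE 0.19, edgeR adjusted p = 0.197). C1qc, the C chain (ENSMUSG00000036896), was also high in wildtype 2 and 4, at 25.6, 45.9, 26.9 and 40.3 CPM against 26.9, 21.7, 23.4 and 25.2 CPM. Its log2 fold change was −0.51 (SE 0.18, edgeR adjusted p = 0.293).

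Of the 36 pairs of members, the 3 pairs within C1q had the most alike profiles. Likeness was measured as the root mean square difference between the log2 CPM of the 8 libraries after each gene was centred on its mean, and it was 0.084 for C1qa and C1qc, 0.092 for C1qb and C1qc and 0.142 for C1qa and C1qb. In FPKM, C1qa was at 0.792 to 0.887 of C1qb in wildtype and reached 1.13 in the labelled group, and C1qc at 0.459 to 0.511 and 0.497 to 0.584 of C1qb. The upper end of both ratios in the labelled group came from labelled library 1. RefSeq's promoter table (GRCm38.p6, 300 bases per start site) held C1qb and C1qc. The 250 bases before each start site are shown because these 2 neighbouring genes had nearly the same profile; both lie on the minus strand, at chr4:136886201-136886450 and chr4:136892915-136893164. Capitals mark the PU.1 core letters GAGGAAG on either strand, a factor of myeloid cells.
C1qb: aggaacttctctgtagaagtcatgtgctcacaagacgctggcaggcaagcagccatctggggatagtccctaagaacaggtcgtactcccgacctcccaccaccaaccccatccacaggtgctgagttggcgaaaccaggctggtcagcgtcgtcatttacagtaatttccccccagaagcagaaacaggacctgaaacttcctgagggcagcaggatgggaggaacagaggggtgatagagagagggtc
C1qc: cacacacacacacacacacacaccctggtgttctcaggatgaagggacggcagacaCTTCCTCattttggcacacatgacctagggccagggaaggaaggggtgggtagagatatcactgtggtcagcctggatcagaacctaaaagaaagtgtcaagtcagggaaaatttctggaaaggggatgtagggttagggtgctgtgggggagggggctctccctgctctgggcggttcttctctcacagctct
C1qc held 1 match, on the minus strand of the printed sequence at position −194 from the start site, and C1qb held none. These letters occur in 13.6% of all 32851 promoter windows of this length, and a match is not a shown site.

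Macrophage markers were high in the same wildtype libraries as C1q. The 12 markers, none of them a C1q gene, summed to 257, 335, 253 and 385 CPM in wildtype 1 to 4 and to 267, 227, 251 and 255 CPM in labelled libraries 1 to 4; 11 of the 12 had a log2 fold change below 0 (median −0.29), 0 were called, and none was at 0 counts in any library. Summed C1q amounted to 29.8, 41.6, 32.3 and 34.0 CPM per 100 CPM of these markers in wildtype and to 28.3 to 30.3 in the labelled group. With the mean log2 level of the markers as a covariate, the log2 fold changes were −0.01 for C1qa, −0.21 for C1qb and −0.13 for C1qc. In that fit 1 member, C4b, was called lower (0.573% of all genes were). With the hepatocyte score as a covariate instead they were 0.16, −0.08 and −0.01. Within the 5 libraries that carried hepatocyte markers, 1 wildtype and 4 labelled, they were 0.09, −0.17 and −0.06. Both of these fits lean on wildtype 1, the only wildtype library with hepatocyte markers at the level of the labelled group. No cause of these shifts was tested.

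**Figure D3:**
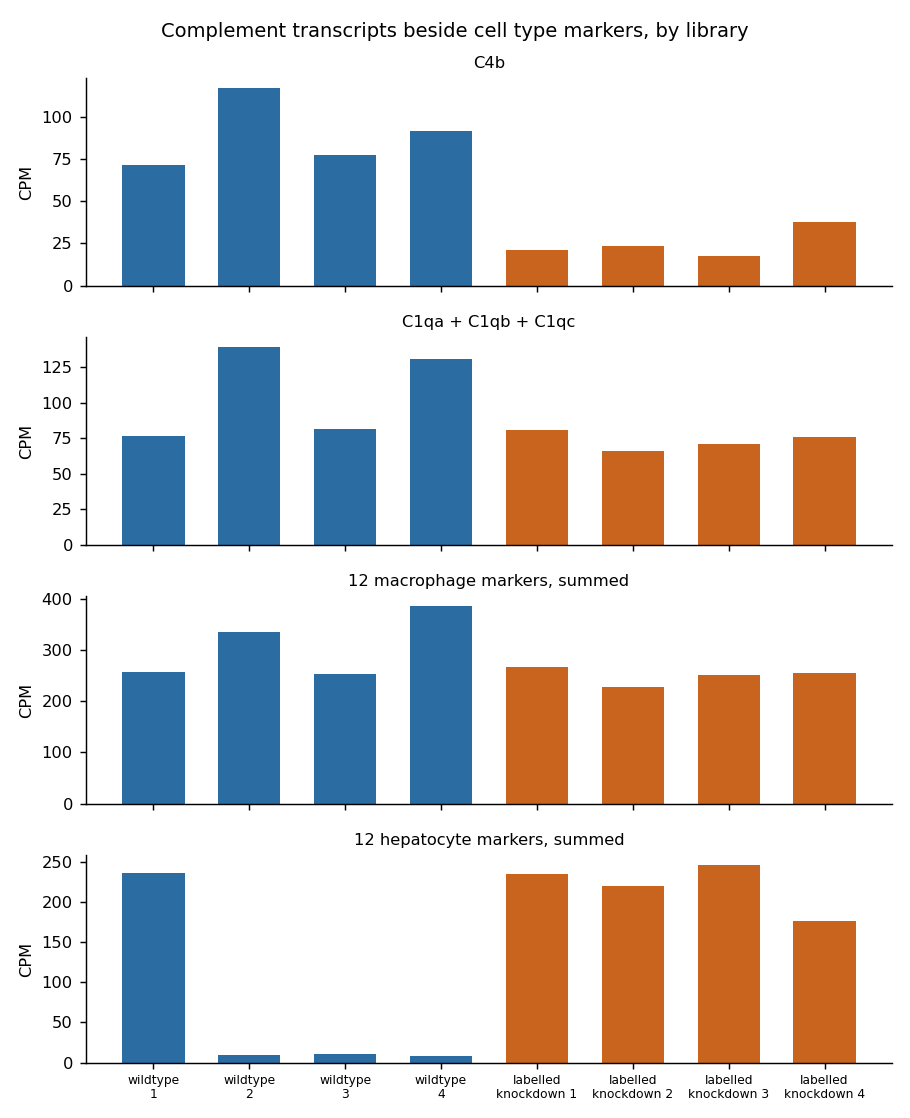
CPM in each of the 8 libraries (bars, vertical axes from 0, wildtype left and labelled Mertk knockdown right) of C4b, of the summed C1q genes, of 12 summed macrophage markers and of 12 summed hepatocyte markers. C1q and the macrophage markers are both highest in wildtype 2 and 4, whereas C4b is above all labelled libraries in each wildtype library, including wildtype 1 with 236 CPM of hepatocyte markers.

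C1ra and C1s1, which encode the proteases C1r and C1s, are neighbours within 30.0 kb of chromosome 6 (124512405 to 124542359, on opposite strands). C1ra (ENSMUSG00000055172) was at 23.3, 36.4, 19.9 and 26.0 CPM in the wildtype hearts, against 14.7, 15.95, 15.94 and 22.2 CPM. The groups overlapped only through labelled library 4, which lay above wildtype 3. The log2 fold change was −0.62 (SE 0.19, edgeR adjusted p = 0.221). C1s1 (ENSMUSG00000038521) was at 46.2, 63.5, 44.2 and 50.7 CPM against 38.7, 32.3, 35.7 and 46.4 CPM, and labelled library 4 again reached into the wildtype range (edgeR log2 fold change −0.42, SE 0.14, adjusted p = 0.261). In FPKM, C1ra was at 0.473 to 0.602 of C1s1 in wildtype and 0.398 to 0.519 in the labelled group, so the ratio overlapped between the groups. Within the 5 libraries with hepatocyte markers the log2 fold changes were −0.43 for C1ra and −0.26 for C1s1. The paralogs C1rb and C1s2 resemble these genes, and reads may be shared between them. C1rb was at 1.03 to 3.83 CPM over the 8 libraries and C1s2 at 0.315 CPM or less, so the paralogs held few of the counts.

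Serping1 (ENSMUSG00000023224, chromosome 2, 84765387 to 84775444) encodes C1 inhibitor, which stops C1r, C1s and the lectin pathway proteases. Its levels were 76.2, 189.5, 98.6 and 123.9 CPM in the wildtype hearts, against 66.4, 62.5, 78.3 and 83.7 CPM. Wildtype 2 was the highest, wildtype 1 lay within the labelled range, and the other 3 wildtype libraries lay above it. The mean was 1.68-fold lower (edgeR log2 fold change −0.75, SE 0.25, 95% interval −1.31 to −0.18, adjusted p = 0.261). Within the 5 libraries with hepatocyte markers the log2 fold change was −0.06, and with the hepatocyte covariate −0.05. Serping1 was a member that DESeq2 called, with an adjusted p of 0.0484.

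C4b and C4a lie 95.1 kb apart from end to end in the class III part of the mouse major histocompatibility locus (chromosome 17, 34728380 to 34823464, minus strand). C4b (ENSMUSG00000073418) encodes C4. C4a (ENSMUSG00000015451) is the copy known as sex-limited protein, listed in GENCODE M21 as a processed transcript and in RefSeq as a transcribed pseudogene in this strain's reference. Their main transcripts were 96.2% identical over 5357 aligned bases, and 8.26% of the 150-base windows of the C4b transcript, the length of 1 read, occurred unchanged in a C4a transcript. The stretch below is shown because it is where the copies differ most: the 90 coding bases within 1 exon with the most differences, in exon 21 of each transcript (C4b at chr17:34735430-34735519, C4a at chr17:34816086-34816175, mm10, GENCODE M21 transcripts, minus strand). Capitals mark the 14 differing bases.
C4b: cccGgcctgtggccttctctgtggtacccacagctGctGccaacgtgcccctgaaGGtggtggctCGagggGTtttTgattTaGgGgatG
C4a: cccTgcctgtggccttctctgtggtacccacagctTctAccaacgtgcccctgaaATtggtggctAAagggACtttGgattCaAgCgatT
Reads across such stretches can be assigned to 1 copy, and reads within the longest identical run of 433 bases cannot.

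In wildtype 1 to 4 C4b was at 71.6, 116.8, 77.4 and 91.4 CPM, and in labelled libraries 1 to 4 at 21.02, 23.33, 17.3 and 37.8 CPM. The lowest wildtype library was above the highest labelled one by a wide margin. In edgeR the log2 fold change was −1.84 with an SE of 0.25 and a 95% interval of −2.41 to −1.28 (adjusted p = 0.0177). The call was lost without wildtype 4 (adjusted p = 0.0560), labelled library 1 (0.0686) or labelled library 2 (0.0701), where the log2 fold change stayed between −1.83 and −1.77. Without labelled library 4, the highest of its group, the log2 fold change was −2.11 (adjusted p = 0.00405). Without the 3 libraries high in atrial markers, an alternative chosen after seeing the data, it was −2.19 (SE 0.23) and was not called (adjusted p = 0.0587). On log2(FPKM + 1) a two-sided exact permutation test gave p = 0.0286, the smallest that 4 against 4 can give.

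C4a held few counts, at 105, 159, 72 and 81 in wildtype and 47, 21, 19 and 32 in the labelled group. This was 1.19% to 2.26% of the C4 counts in wildtype and 1.23% to 3.26% in the labelled group. In CPM it was at 1.10 to 2.40 against 0.298 to 0.709, without overlap (edgeR log2 fold change −1.83, SE 0.39, adjusted p = 0.0825), and it was not called. How many of these counts were C4b reads placed on C4a was not tested. Summing the copies removes that question. Summed C4 was at 73.3, 119.2, 78.7 and 92.5 CPM in the wildtype hearts against 21.7, 23.7, 17.6 and 38.3 CPM, and it fell by 1.84 on the log2 scale (SE 0.25, 95% interval −2.41 to −1.28, edgeR adjusted p = 0.0170).

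The C4b difference kept its sign under each adjustment for cell type markers, and its call under some. Wildtype 1, with as much hepatocyte marker RNA as the labelled group, had 71.6 CPM of C4b. Within the 5 libraries with hepatocyte markers the log2 fold change of C4b was −1.52 (SE 0.38, adjusted p = 0.305) and that of C4a was −1.87. With the hepatocyte covariate C4b had −1.50 (SE 0.34, adjusted p = 0.210). In the first of these fits 1 wildtype library is assumed to vary like the labelled group. The second fit leans on the same library, since no other wildtype library had these markers at the level of the labelled group. No member was called in either, where 0.116% and 0.0450% of all genes were called lower. With the macrophage covariate C4b had −1.52 (edgeR adjusted p = 0.0277) and with the fibroblast covariate −1.90 (edgeR adjusted p = 0.00582). The 10 fibroblast markers summed to 1336, 2732, 1454 and 2013 CPM in wildtype 1 to 4 and to 1618, 1476, 2027 and 2023 CPM in labelled libraries 1 to 4, so they did not separate the groups. In the fibroblast fit 7 members were called lower, all but C1qa and C3, while 1.79% of all genes were called lower and 2.90% in either direction.

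No other gene around C4 was called. Within 60 kb on either side of the C4b to C4a interval the table lists 17 genes, of which 11 were tested and 1, C4b, was called. Of all tested genes 0.647% were called in either direction, so few calls would be found in any region of this size. The log2 fold change was below 0 in 8 of the 11, and in 50.1% of all tested genes. Tnxb, the matrix protein gene next to C4b, had a log2 fold change of 0.15 (SE 0.16), and Stk19, next to C4a, one of −0.05 (SE 0.19). The complement genes of the same region, Cfb and C2, had −1.40 (SE 0.42) and −0.74 (SE 0.52) and are given with the other pathway genes.

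C3 (ENSMUSG00000024164, chromosome 17, 57203970 to 57228136, minus strand) is the component on which all pathways converge. It was at 182.5, 271.1, 191.6 and 176.0 CPM in wildtype 1 to 4 and at 119.5, 142.2, 109.9 and 172.7 CPM in labelled libraries 1 to 4. The groups did not overlap, but labelled library 4 came close to wildtype 4. The mean was 1.51-fold lower (edgeR log2 fold change −0.59, SE 0.18, 95% interval −0.99 to −0.20, adjusted p = 0.197), and DESeq2 gave an adjusted p of 0.0437. DESeq2 called 4 members lower in all (C4b, C4a, C3 and Serping1), where it called 1.62% of all genes lower and 2.87% in either direction. Within the 5 libraries with hepatocyte markers C3 had a log2 fold change of −0.42. In FPKM, C4b stood at 0.354 to 0.469 of C3 in wildtype and at 0.142 to 0.198 in the labelled group, with no overlap between the groups. The RefSeq promoter of C3 is shown because it held the letters of a C/EBP sequence before the start site (GRCm38.p6, chr17:57228137-57228386, minus strand); C/EBP factors drive acute-phase genes. Capitals mark the letters TTGCNNAA on either strand.
C3: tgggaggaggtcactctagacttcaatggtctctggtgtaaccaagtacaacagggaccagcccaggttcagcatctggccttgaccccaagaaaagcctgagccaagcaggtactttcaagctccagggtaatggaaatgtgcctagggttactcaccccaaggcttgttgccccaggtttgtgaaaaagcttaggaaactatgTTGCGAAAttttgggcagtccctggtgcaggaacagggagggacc
The match began at position −45 from the start site. Of all promoter windows 10.8% hold these letters, as did 3 of the 6 windows of members in the table. The 6 windows cover 5 members, since C1s1 had overlapping windows, and the shares were not compared by a test. The interferon-gamma activated site TTCNNNGAA was in 1 of the 6 (C1ra, 32 bases after the start site) and in 8.30% of all windows, and the core of the interferon-stimulated response element in 0 of the 6 and in 3.44%. The table held promoters for 5 of the 9 members: C1qb, C1qc, C1ra, C1s1 and C3.

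Per length, the wildtype hearts held most Serping1 (47.8 ± 20.7 FPKM, SD, n = 4), then C3 (36.1 ± 8.67), C1qb (33.3 ± 11.3) and C1qa (28.7 ± 10.5), and neighbours in this order differed by less than the larger of their SDs. C1qc (16.3 ± 5.33 FPKM), C1s1 (14.8 ± 3.04) and C4b (14.2 ± 3.70) formed the next group, also within their spread. C1ra followed with 8.05 ± 2.45 FPKM and C4a with 0.231 ± 0.0914 FPKM. In the labelled group the order was the same except that C4b, at 3.999 ± 1.5 FPKM, came after C1ra, at 5.28 ± 1.13 FPKM, a gap smaller than the SD of C4b.

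For 4 profiles, the genes most alike over the 8 libraries were searched among 7681 genes. These averaged 10 CPM or more, were not members and had no predicted or clone name. Nearest to C1q were Msrb1, a methionine sulfoxide reductase (root mean square difference 0.097), Sp100, a nuclear body protein (0.105), and Samd9l (0.118). Nearest to C3 were Zfp697 (0.149), Sorl1, a sorting receptor (0.153), and Dennd4a (0.156). Near to summed C4 were Apod, a lipocalin (0.260), and Wdfy1 (0.368). Apod was at 24.1, 37.2, 37.6 and 30.8 CPM in the wildtype hearts against 9.06, 7.11, 5.67 and 9.89 CPM (log2 fold change −2.03, edgeR adjusted p = 0.00236). Nearest to Serping1 were Igfbp3, which binds insulin-like growth factors (0.113), Tspo, of the outer mitochondrial membrane (0.133), and Ddx58, the RNA sensor RIG-I (0.157). The measure over 8 libraries takes in the difference between the groups as well as the spread within them.

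Other genes of the pathway were taken from a list of 45, of which 44 were in the table and 40 were tested. Of the 40, 0 were called in either direction by edgeR. At an unadjusted p under 0.05, 7 were lower and 2 higher, where 6.32% and 6.11% of all tested genes were, and the sign was negative in 24 (median log2 fold change −0.14). DESeq2 called 4 lower (Masp1, Cfb, Clu and C5ar1) and 3 higher, among them Vtn, and Mbl1, which edgeR's filter had removed. Of all genes DESeq2 called 1.62% lower and 2.87% in either direction. The groups did not overlap in 8 of the 40, with the labelled libraries lower in 5 and higher in 3, against 3.90% and 4.18% of all genes. By role, the log2 fold change was below 0 in 4 of 6 proteases and cleaved components (median −0.59), 2 of 4 lectins (−0.07), 2 of 2 alternative pathway genes (−0.81), 2 of 7 terminal components (1.58), 2 of 7 regulators in fluid (0.90), 5 of 7 regulators on cells (−0.08) and 7 of 7 receptors (−0.28), where 50.1% of all tested genes were below 0. These counts and signs are descriptions, since no gene of any role was called. The list was also chosen with earlier results of these data known.

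Among the proteases, Masp1, a protease of the lectin pathway, had the smallest p. It was at 25.0, 36.3, 19.1 and 18.5 CPM in the wildtype hearts and did not overlap with the labelled libraries, at 10.1, 9.44, 12.7 and 14.4 CPM (edgeR log2 fold change −1.08, SE 0.23, adjusted p = 0.0839). C1rb had −0.76 (SE 0.31, adjusted p = 0.346). In the alternative pathway Cfb, which encodes factor B and lies in the same region as C4, was at 7.62, 20.8, 6.78 and 23.6 CPM against 4.30, 5.36, 5.44 and 7.23 CPM. As with C1q, wildtype 2 and 4 were the high libraries (edgeR log2 fold change −1.40, SE 0.42, adjusted p = 0.221). Cfp, properdin, had −0.22 (SE 0.23). C2, the partner of C4 in the C3-splitting enzyme, had −0.74 (SE 0.52, adjusted p = 0.621).

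Among regulators, Clu, which encodes clusterin, was at 648, 1070, 719 and 621 CPM against 492, 585, 475 and 487 CPM (edgeR log2 fold change −0.58, SE 0.17, adjusted p = 0.194), without overlap. Cd59a, which blocks assembly of the membrane attack complex on host cells, ran from 47.9 to 54.9 CPM in wildtype hearts and from 38.9 to 43.9 CPM in labelled ones. Its log2 fold change was small (−0.30, SE 0.08, edgeR adjusted p = 0.169), and its copy Cd59b had −0.79 (SE 0.24, adjusted p = 0.197). Among the receptors, C5ar1, the receptor for C5a, ran from 3.87 to 5.20 CPM in wildtype hearts and from 2.23 to 3.31 CPM in labelled ones (edgeR log2 fold change −0.67, SE 0.18, adjusted p = 0.168). Vsig4, a macrophage receptor for C3 fragments, had −1.06 (SE 0.58, adjusted p = 0.508).

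A set of genes known mainly from the liver had values close to 0 in all but 1 wildtype library. The terminal components Hc (which encodes C5), C8a, C8b and C9, the lectin gene Mbl2 and the regulator gene C4bp were at 0.363 to 1.47 CPM in wildtype 1 and 0.392 to 2.64 CPM in the labelled libraries. In wildtype 2, 3 and 4 they had 0 counts, except for Hc in wildtype 2 at 0.0754 CPM. The counts of 0 allow up to 0.0506 CPM in the shallowest library, for counting error only. With all libraries none was called: the log2 fold changes were 2.51 for C8b (SE 1.24, edgeR adjusted p = 0.461), 2.29 for Hc (SE 1.28, 0.536) and 2.46 for Mbl2 (SE 1.5, 0.578). Colec11, a lectin gene with counts in every library, had 0.12 (SE 0.15). Without wildtype 1, 7 genes of the list were called higher by edgeR (Hc, C8a, C8b, C9, Mbl2, C4bp and Vtn, vitronectin), where 0.906% of all genes were. The first 6 were grouped for values near 0 in wildtype 2, 3 and 4. Their calls follow from that grouping and are no separate result. Vtn was at 17.4, 8.55, 9.13 and 10.3 CPM in wildtype 1 to 4 and ranged from 15.4 to 26.3 CPM in labelled hearts (edgeR log2 fold change 0.90, SE 0.24, adjusted p = 0.169). These 7 and the hepatocyte markers were high in the same 5 libraries; the values of the members within those 5 libraries are given with each of them.

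**Figure D4:**
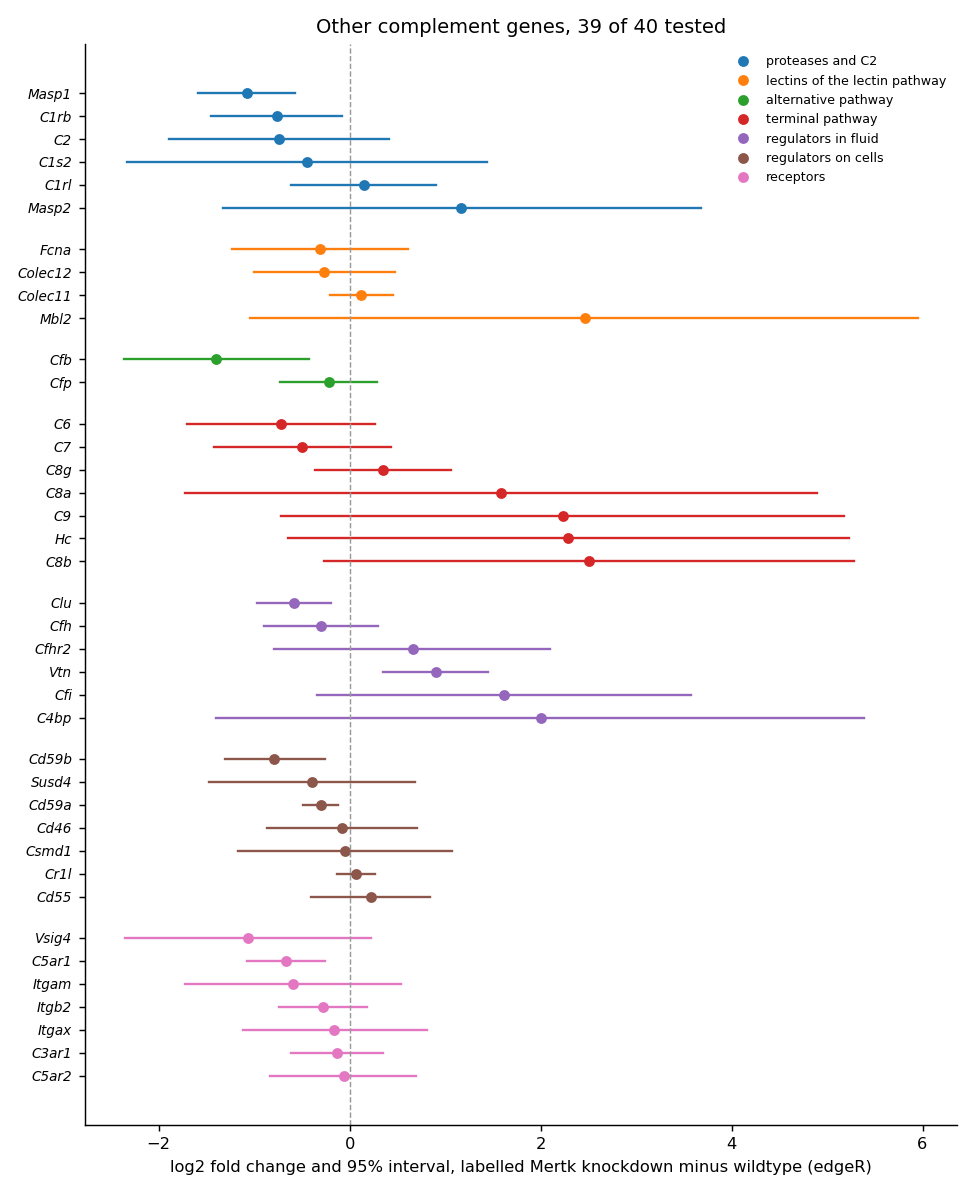
Log2 fold change (points; horizontal axis, labelled Mertk knockdown minus wildtype, edgeR) and 95% interval (lines) of 39 of the 40 other complement genes tested, grouped and coloured by role. Masp1 (−1.08) and Cfb (−1.40) lie to the left of 0, and the liver genes Mbl2, C8a, C8b, C9, Hc and C4bp lie to the right with wide intervals; no gene was called.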

How the data were processed

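Read counts and FPKM of 30445 genes in 8 libraries were deposited by the authors in 1 table, per the file headers. The submitters' processing notes name build mm10 and, as tools, edgeR, DESeq2, StringTie 2.1.6, HISAT2 2.2.1 and cutadapt 1.9; their roles, the annotation release and whether counting used strand are not given in the sources used here, so reads of overlapping or near-identical genes may be shared. FPKM was scaled by the authors for gene length and library size, per the file headers.

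Counts were tested as deposited with edgeR 4.0.16 in R 4.3.3 (TMM factors, filterByExpr, glmQLFit with robust = TRUE, glmQLFTest, two-sided), fitted across all genes, with no covariate and 4 libraries a group; the SE is the size of the log2 fold change divided by the square root of F. C4a and C4b were also summed before the fit. The fit was tested on simulated data. It called 3 of 47 genes changed 1.5-fold, 26 of 48 changed 2-fold and 39 of 48 changed 4-fold. Of 17065 unchanged genes it called 8. Simulated differences near 1.5-fold were thus mostly missed. Alternatives were other normalization factors, no filter, DESeq2 1.42.0, limma 3.58.1 on log2(FPKM + 1) and log2(FPKM + 0.1), a replicate block, marker scores as covariates (mean log2 CPM, prior count 2), libraries with over 100 CPM of hepatocyte markers, and leaving out libraries.

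Named genes are all members, Mertk, the 2 tested genes of smallest p in each role of the wider list with any called gene, and the 3 nearest profiles of C1q, C3, summed C4 and Serping1; C1s2, C2, C4bp, C8a, C9, Cd55, Cfd, Clu, Mbl1, Tnxb and Stk19 were added after their values were seen, and some genes that the rule names are not reported here. The members and lists were chosen with earlier results of these data known. Libraries of a group differed by more than sampling noise (over genes with at least 20 counts, chi-square divided by its degrees of freedom was 37.9 to 198.7). Total counts of 59287621 to 71571173 a library set the depth, and limits from counts of 0 cover counting error only.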

Additional observations from a re-analysis of the deposited data

How the results depend on the processing

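C4b and summed C4 kept their direction under all 21 alternatives, with log2 fold changes of −2.19 to −1.50 and −2.19 to −1.51. They lost their call with limma on log2(FPKM + 1) without a filter (−1.62 for each), within the libraries with hepatocyte markers (−1.52 for each), with the hepatocyte covariate (−1.50 and −1.51) and without the 3 libraries highest in atrial markers (−2.19 for each; this last alternative was chosen after seeing the data). Leaving out 1 library gave −2.11 to −1.68 for each, with the call kept in 5 of 8. The count of members called was 4 by DESeq2, 7 with the fibroblast covariate, 0 under the 4 alternatives just named and 0 to 1 when 1 library was left out. For the wider list it was 7 by DESeq2, 1 with the macrophage covariate (Cd55, higher), 2 with the fibroblast covariate (Cfb and Masp1, lower) and 0 to 7 when 1 library was left out. Of all genes, DESeq2 called 2.87% and the fibroblast fit 2.90% in either direction, and the fit without wildtype 1 called 0.906% higher. C1qa reversed to 0.09 within the libraries with hepatocyte markers and to 0.16 with the hepatocyte covariate, and the other 7 members kept their direction throughout. Over all genes 115 were called, and 583 by DESeq2, 57 and 70 by limma on log2(FPKM + 1) and log2(FPKM + 0.1), 21 by limma on log2(FPKM + 1) without a filter, 12 with the hepatocyte, 174 with the macrophage and 515 with the fibroblast covariate, 42 within the libraries with hepatocyte markers, 6 without the atrial libraries and 44 to 265 when 1 library was left out. Fits to fewer libraries have fewer degrees of freedom; otherwise the cause was not tested.

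The labels number replicates 1 to 4 in both groups but do not say whether same-numbered libraries were paired. Deviations of same-numbered libraries correlated at only −0.006 to 0.181, and 3 of 8 libraries correlated best with their own number. These values do not show a pairing and cannot exclude one. With the replicate block 24 genes were called over all genes and 1 member, C4b (−1.88, adjusted p = 0.0203; summed C4 −1.88, adjusted p = 0.0221).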

Other observations

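Cfd, which encodes the alternative pathway protease factor D (adipsin) and is a marker of fat, did not pass the filter. It was at 17.3 CPM in wildtype 3 and at 2.38 CPM in wildtype 4, at 0.690 CPM or less in the labelled libraries, and at 0 counts in wildtype 1 and 2. The 5 adipocyte markers summed to 37.5 CPM in wildtype 3 and to 1.16 CPM or less in every other library. Mbl1, a lectin gene, had 0 counts in all 4 wildtype libraries and 6, 4, 9 and 32 counts in labelled libraries 1 to 4.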
